A study of Mus musculus with 12 samples.

Results

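Lung fibroblasts of 2 subgroups were compared for how differently they responded to metastasis. For each gene, the change between normal and metastatic lung in matrix fibroblasts (the MF effect) was set against the same change in the subgroup abbreviated MyoF in the labels, taken here as myofibroblasts (the MyoF effect). The members are the 13300 of 20606 genes in the deposited table that reached 1 FPKM (fragments per kilobase of transcript, scaled to the mapped total of the library) in at least 3 of the 12 libraries. The quantity tested is the MF effect minus the MyoF effect on the log2(FPKM + 1) scale, so a positive difference means that the gene rose more, or fell less, in matrix fibroblasts. The series asks how fibroblasts expressing tryptophan 2,3-dioxygenase act in breast cancer metastasis to the lung.

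Each of the 4 groups held 3 libraries from mouse lung. N-MF and N-MyoF came from normal mice, and M-MF and M-MyoF from mice with lung metastasis. The strain, sex and age of the mice, the tumour line, the time after tumour cells were given and the sorting of the subgroups are not stated in the sources used here. No label says that the libraries of a group came from separate animals, so a p-value reflects how far these libraries differ among themselves, a spread that may be technical. Most genes below are named by a rule given with the processing, and Mgp, Adgre1, Arg1, Ccl19, Chil1, Col11a2, Col4a4, Dcn, Gpx4, Igf2, Il18, Lcn2, Ltf, Mrgprg, Osm, Pecam1, Retnla, S100a8 and Slpi were chosen after their values were seen. In what follows, ± after an FPKM mean is the SD over the 3 libraries of a group, and ± after a log2 effect or difference is its SE from a limma fit of all 12 libraries.

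Matrix fibroblasts of the lung lie along alveoli, airways and vessels and make the collagens, proteoglycans and growth factors of the interstitium. Myofibroblasts carry contractile proteins such as alpha smooth muscle actin and form ridges at airways and alveolar entrances. In lungs that carry tumour cells, both can take on secretory programmes of chemokines, acute phase proteins and matrix.

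Of 16 tested myofibroblast markers 14 stood higher in every N-MyoF than in every N-MF library. The exceptions were Mgp, matrix Gla protein, at 3919 ± 63.9 FPKM in N-MyoF and 9777 ± 196 in N-MF, and Pdgfra, a receptor of platelet-derived growth factor, at 9.37 ± 0.308 and 88.8 ± 0.646. All 17 tested markers of the Col14a1 type of matrix fibroblast stood higher in every N-MF library, but of 16 tested markers of the Col13a1 type 7 did so and 9 stood higher in every N-MyoF library. For all 13300 genes tested the order was counted by mean log2 level, a looser measure than that of every library. By it 8993 stood higher in N-MyoF and 4291 in N-MF. The share of all genes without overlap is not given here, so the marker counts have no like background. Acta2, alpha smooth muscle actin, stood at 628 ± 11.7 FPKM in N-MyoF and 24.0 ± 0.922 in N-MF. Hhip, a hedgehog-binding protein of lung myofibroblasts, stood at 2230.5 ± 38.2 and 67.8 ± 1.11, and Dcn, the matrix proteoglycan decorin, at 857 ± 4.35 and 10534 ± 70.9. Summed FPKM per library ran from 528176 to 618478, and 11466 to 12682 genes reached 1 FPKM; read counts are not given, so the depth is unknown. The 12 airway and alveolar epithelial markers together summed to 2670.4 to 2721 FPKM in the N-MF libraries, 3104 to 3136 in M-MF, 20365 to 20875 in N-MyoF and 16457 to 16990 in M-MyoF, and none of them was at 0 in any group. In bulk libraries more cells of a type and more RNA per cell cannot be told apart, here and for every marker below. Libraries with the same number from 1 to 3 deviated together across the groups, and the counts of calls, and the named genes whose call changed, are given without the libraries numbered 3 in the closing section.

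The metastasis effects of the 2 subgroups ran largely in parallel, and a minority of genes departed from that by 2-fold or more. Across the 13300 genes the MF and MyoF effects correlated with a Pearson r of 0.723 and a Spearman rho of 0.71, a description over genes that are not independent replicates and that share 12 libraries with common library numbers. The difference passed at an adjusted p under 0.05 for 8566 genes, 64.4% of those tested. The libraries of a group were nearly alike, with r of 0.996 to 0.998 for log2 values, and the median SE of the difference was 0.0675. With a minimum size of 2-fold added to the call, 944 genes were called, 7.1% of those tested. The MF effect was the higher one for 509 of them, 3.83% of genes tested, and the MyoF effect for 435, 3.27%. Counts of called members of every gene list below are to be read beside these shares. The difference ran from -5.66 to 6.04, with a median of -0.064 over all genes. Of the 944 called genes 140 reached 1 FPKM in the libraries of 1 group alone, as did 447 of all genes tested, and such a gene had to differ to be tested at all.

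Behind these calls stand the 2 effects themselves. In matrix fibroblasts 1240 genes rose at least 2-fold in metastasis, 9.32% of those tested, and 338 fell, 2.54%. In myofibroblasts 1510 rose, 11.4%, and 431 fell, 3.24%. A total of 831 genes rose at least 2-fold in both, and for 690 of them the difference was not called. Of the 126 genes that fell at least 2-fold in both, 116 were not called. The called genes fell into classes by the shape of their difference. A rise in 1 subgroup with an effect under 0.5 in the other was the shape of 139 genes for matrix fibroblasts and 166 for myofibroblasts. A fall of that kind was the shape of 53 genes for matrix fibroblasts and 107 for myofibroblasts. In 70 genes both subgroups rose at least 2-fold with the larger rise in matrix fibroblasts, and in 71 with the larger rise in myofibroblasts. A shared fall was larger in myofibroblasts for 6 genes and in matrix fibroblasts for 4. Without N-MyoF replicate 1 the falls mostly in myofibroblasts numbered 66, and without M-MyoF replicate 1 the shared falls larger in matrix fibroblasts numbered 2. Of the called genes 46 reached 1 FPKM in N-MyoF alone and fail the filter when any 1 of its libraries is left out. Opposite changes of 2-fold or more each were found in 8 genes, and the others lay between these shapes, 182 with the higher MF effect and 138 with the higher MyoF effect.

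**Figure D1:**
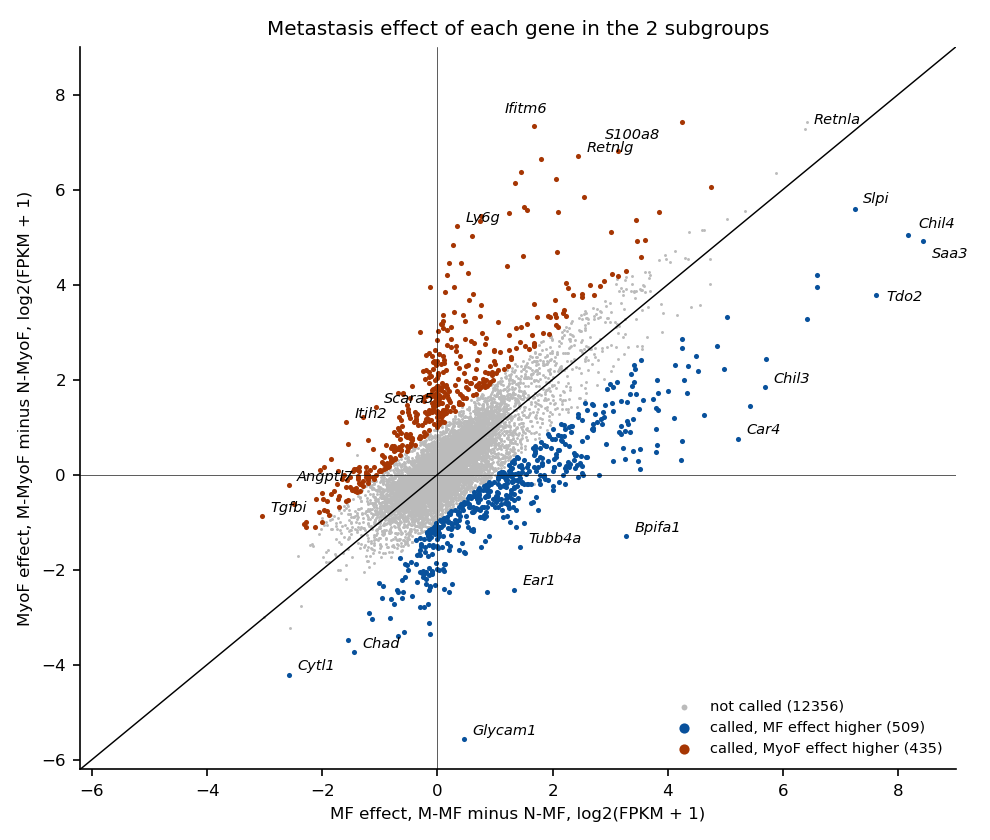
Each point is 1 of the 13300 genes, with the MF effect (M-MF minus N-MF) on the x axis and the MyoF effect (M-MyoF minus N-MyoF) on the y axis, both in log2(FPKM + 1), and the diagonal marks equal effects. The 509 blue genes have the higher MF effect and the 435 brown genes the higher MyoF effect by 2-fold or more, and Tdo2, Saa3 and Chil4 lie far to the right while Ifitm6 and S100a8 lie at the top.

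The distance between the subgroups in normal and in metastatic lung is given for each direction of the calls. Among the 509 genes with the higher MF effect, 448 had the higher normal level in N-MyoF, and 342 (67.2%) were closer between the subgroups in metastatic than in normal lung on the log2 scale. Among the 435 genes with the higher MyoF effect, 239 had the higher normal level in N-MF, and 180 (41.4%) were closer in metastatic lung. Over all genes tested, 6696 (50.3%) were closer and 8993 had the higher normal level in N-MyoF. The median distance between the subgroups for the genes with the higher MF effect was 1.40 in normal and 0.884 in metastatic lung, and for those with the higher MyoF effect 1.01 and 1.58. These distances are descriptions and leave out the sign. The call is made on the same values, as the change in the signed difference between the subgroups, so they are no separate support for it.

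Tdo2, tryptophan 2,3-dioxygenase, the enzyme of the first step from tryptophan to kynurenine, was 1 of the 10 genes with the largest differences in favour of matrix fibroblasts. Its values were 0.490, 0.590 and 0.440 FPKM in the N-MF libraries and 295, 298 and 291 in M-MF. In myofibroblasts they were 4.32, 5.31 and 5.22 in normal and 80.1, 80.9 and 79.8 in metastatic lung. All 3 M-MF libraries lay above all others, and M-MyoF in turn above both normal groups, which did not overlap either. The M to N ratio of the means was 581 in matrix fibroblasts and 16.2 in myofibroblasts. The MF effect was 7.62 ± 0.0561, the MyoF effect 3.78 ± 0.0561 and the difference 3.84 ± 0.0794 (limma adjusted p = 1.0e-12). The 300 bases around its start (RefSeq on GRCm38.p6, chr3:81975679-81975978, minus strand, 250 bases before to 50 after the start) are shown because the study's title turns on this gene. None of the 5 motifs described further on matched in them, so no letter is in capitals.
Tdo2: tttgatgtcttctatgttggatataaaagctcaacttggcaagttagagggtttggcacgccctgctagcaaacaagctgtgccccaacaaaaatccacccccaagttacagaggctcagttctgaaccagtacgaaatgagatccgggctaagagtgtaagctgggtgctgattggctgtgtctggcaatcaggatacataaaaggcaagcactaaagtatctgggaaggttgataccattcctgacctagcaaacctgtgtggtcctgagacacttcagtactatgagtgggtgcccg

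Of 8 tested members of the list, 1 was called with the higher MF effect and 0 with the higher MyoF effect, and the list's median difference was -0.12, against -0.064 over all genes. Ido1, the interferon-induced enzyme of the same step, read 0.0300 ± 0.0300 and 2.00 ± 0.102 FPKM in matrix fibroblasts and 0.140 ± 0.0794 and 3.75 ± 0.101 in myofibroblasts, and its difference of -0.52 ± 0.0795 passed the adjusted p but not the minimum size. Qprt, which leads from the pathway to NAD, had a difference of -0.54 ± 0.104, and the kynurenine aminotransferase Kyat3 one of 0.29 ± 0.0606. Afmid, the formamidase that follows Tdo2, had 0.27 ± 0.103, and Got2 -0.16 ± 0.0440. For Ido2 and Kyat1 the adjusted p was 0.128 and 0.496, with 95% intervals of -0.40 to 0.035 and -0.28 to 0.13. Kmo, Kynu, Haao, Acmsd and Aadat had group means of at most 0.753 FPKM and were below the filter. The 8 tested genes of the aryl hydrocarbon receptor list, the receptor that kynurenine binds and its targets, gave 0 calls in either direction, with a median of 0.15. Within it, Cyp1b1 had a difference of -0.59 ± 0.0411 and Nqo1 of 0.91 ± 0.103, both under 2-fold. Without M-MyoF replicate 3 this list had 1 call with the higher MyoF effect.

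Acute phase and secreted defence proteins held large differences in both directions. Of the list's 12 tested members 5 were called with the higher MF effect and 2 with the higher MyoF effect, 1 without M-MyoF replicate 2 or without M-MyoF replicate 3. The list's median difference was -0.055, against median effects of 5.70 in matrix fibroblasts and 4.24 in myofibroblasts. Saa3, an acute phase lipoprotein component, read 10.03, 7.16 and 11.2 FPKM in N-MF and 3551, 3622 and 3555 in M-MF. In N-MyoF it read 13.3, 15.2 and 15.6 and in M-MyoF 476, 472 and 466. The normal groups did not overlap, with N-MyoF above N-MF, whereas in metastatic lung M-MF stood far above M-MyoF. The effects were 8.44 ± 0.109 and 4.91 ± 0.109 and the difference 3.52 ± 0.154 (limma adjusted p = 9.5e-10). Its start region on GRCm38.p6 (chr7:46715627-46715926, minus strand) is shown as that of a strongly induced member, with matches to TTNCNNNAA and to the IRF motif, described below, in capitals.
Saa3: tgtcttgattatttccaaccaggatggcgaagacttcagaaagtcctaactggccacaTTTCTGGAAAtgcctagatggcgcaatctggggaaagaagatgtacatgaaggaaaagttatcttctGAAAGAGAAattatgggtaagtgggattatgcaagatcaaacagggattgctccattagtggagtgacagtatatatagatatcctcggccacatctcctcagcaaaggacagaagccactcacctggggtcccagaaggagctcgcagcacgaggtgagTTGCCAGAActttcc

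Further secreted proteins were called in the same direction. Hp, which encodes haptoglobin, went from 8.25 ± 0.652 to 481 ± 10.2 FPKM in matrix fibroblasts and from 46.8 ± 0.276 to 256 ± 5.22 in myofibroblasts, a difference of 3.28 ± 0.0567. Chil3, a chitinase-like lectin that macrophages also make, read 7.62, 8.96 and 7.46 and 467, 474 and 453 FPKM in N-MF and M-MF, and 45.4, 48.6 and 46.0 and 169, 175 and 168 in N-MyoF and M-MyoF. The order of the subgroups thus turned: N-MyoF was above N-MF, and M-MF above M-MyoF, with a difference of 3.85 ± 0.0725. Its near-identical neighbour Chil4 had 3.12 ± 0.0465, and reads of the 2 copies may have been split by the authors' counting. Slpi, an inhibitor of leukocyte proteases, had 1.67 ± 0.116, and Trf, the iron carrier transferrin, 3.36 ± 0.0463. Trf rose from 22.2 ± 1.13 to 569 ± 8.79 FPKM in matrix fibroblasts and from 51.4 ± 1.64 to 125 ± 0.234 in myofibroblasts. The members on the other side were Retnlg, -4.25 ± 0.199, a resistin-like protein of neutrophils, and Orm1, -2.81 ± 0.144, an acute phase glycoprotein that reached 1 FPKM in M-MyoF alone. Lcn2, a siderophore-binding protein, and Retnla rose in both subgroups with differences of -0.48 ± 0.0916 and -0.90 ± 0.141, under 2-fold (Retnla passed 2-fold without the libraries numbered 3, at -1.09), and for Chil1 the 95% interval was -0.084 to 0.13.

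The highest difference among genes above 1 FPKM in every group was that of Car4, a membrane-bound carbonic anhydrase known from lung capillaries. It read 17.3, 18.1 and 18.1 FPKM in N-MF, 692, 706 and 707 in M-MF, 65.8, 67.6 and 63.2 in N-MyoF and 113, 110.4 and 111 in M-MyoF. The M-MF libraries were the highest by far and no groups overlapped. The MF effect was 5.22 ± 0.0262, the MyoF effect 0.76 ± 0.0262 and the difference 4.47 ± 0.0370 (limma adjusted p = 1.1e-15). Car4 was the only one of 11 endothelial markers called, and the list's median difference was 0.41. Pecam1, an adhesion molecule of all endothelium, read 24.3 ± 1.02 and 31.8 ± 0.168 FPKM in N-MF and M-MF and 58.0 ± 0.446 and 74.7 ± 1.16 in N-MyoF and M-MyoF, with a 95% interval of the difference of -0.068 to 0.10. Cldn5, an endothelial tight junction protein, had a difference of 0.63 ± 0.0276, and Tek, the angiopoietin receptor, -0.60 ± 0.0394.

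Of 9 tested mesothelial markers 8 rose at least 2-fold in matrix fibroblasts and 4 in myofibroblasts, against 9.32% and 11.4% of all genes tested. Of the 9, 7 were called with the higher MF effect and 0 with the higher MyoF effect, and the median difference was 2.12. Upk3b, a membrane protein of the pleural lining, read 1.10, 1.69 and 1.46 FPKM in N-MF and 46.0, 43.8 and 42.9 in M-MF. The N-MyoF libraries read 30.4, 31.1 and 29.4 and the M-MyoF libraries 38.6, 36.8 and 38.2. N-MF was the group that stood apart, and the other 3 groups lay within a narrower range, with a difference of 3.92 ± 0.0971. Lrrn4 had 3.98 ± 0.0644, Gpm6a 3.18 ± 0.0470 and Msln, which encodes mesothelin, 2.24 ± 0.0522. The 10 markers together summed to 29.2 to 30.2 FPKM in N-MF, 277 to 282 in M-MF, 139.7 to 144 in N-MyoF and 266 to 275 in M-MyoF, and none was at 0 in a group. Rspo1, another mesothelial marker, did not follow, with an adjusted p of 0.167 and a 95% interval of -0.32 to 0.045. The part of mesothelial cells in these differences was not tested.

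Among the genes that rose mostly in matrix fibroblasts was Chl1, a neural adhesion molecule of the L1 family. It went from 0.0700 ± 0.0173 to 11.3 ± 0.252 FPKM in matrix fibroblasts and read 1.10 ± 0.0557 and 1.28 ± 0.0702 in myofibroblasts, a difference of 3.40 ± 0.0605. Calca, which encodes calcitonin and its gene-related peptide, had 3.32 ± 0.166, and Emb, the adhesion glycoprotein embigin, 3.20 ± 0.0510. Rarres1, a retinoid-induced gene, had 2.92 ± 0.116. Gatm, the first enzyme of creatine synthesis, changed in both subgroups (4.25 ± 0.0455 and 0.71 ± 0.0455), with a difference of 3.54 ± 0.0644. It read 1.43, 1.63 and 1.53 FPKM in N-MF and 47.4, 47.4 and 46.4 in M-MF, against 10.5, 9.53 and 9.23 in N-MyoF and 16.7, 17.1 and 16 in M-MyoF. Again N-MF was lowest and M-MF highest, with both MyoF groups between them. Among amino acid carriers Slc7a8, a carrier of large neutral amino acids, was the only one of 13 tested members called, beside 7.1% of all genes. Its means were 1.59 ± 0.0643 and 22.2 ± 1.34 FPKM in matrix fibroblasts and 1.33 ± 0.0814 and 3.31 ± 0.144 in myofibroblasts, a difference of 2.27 ± 0.0693.

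**Figure D2:**
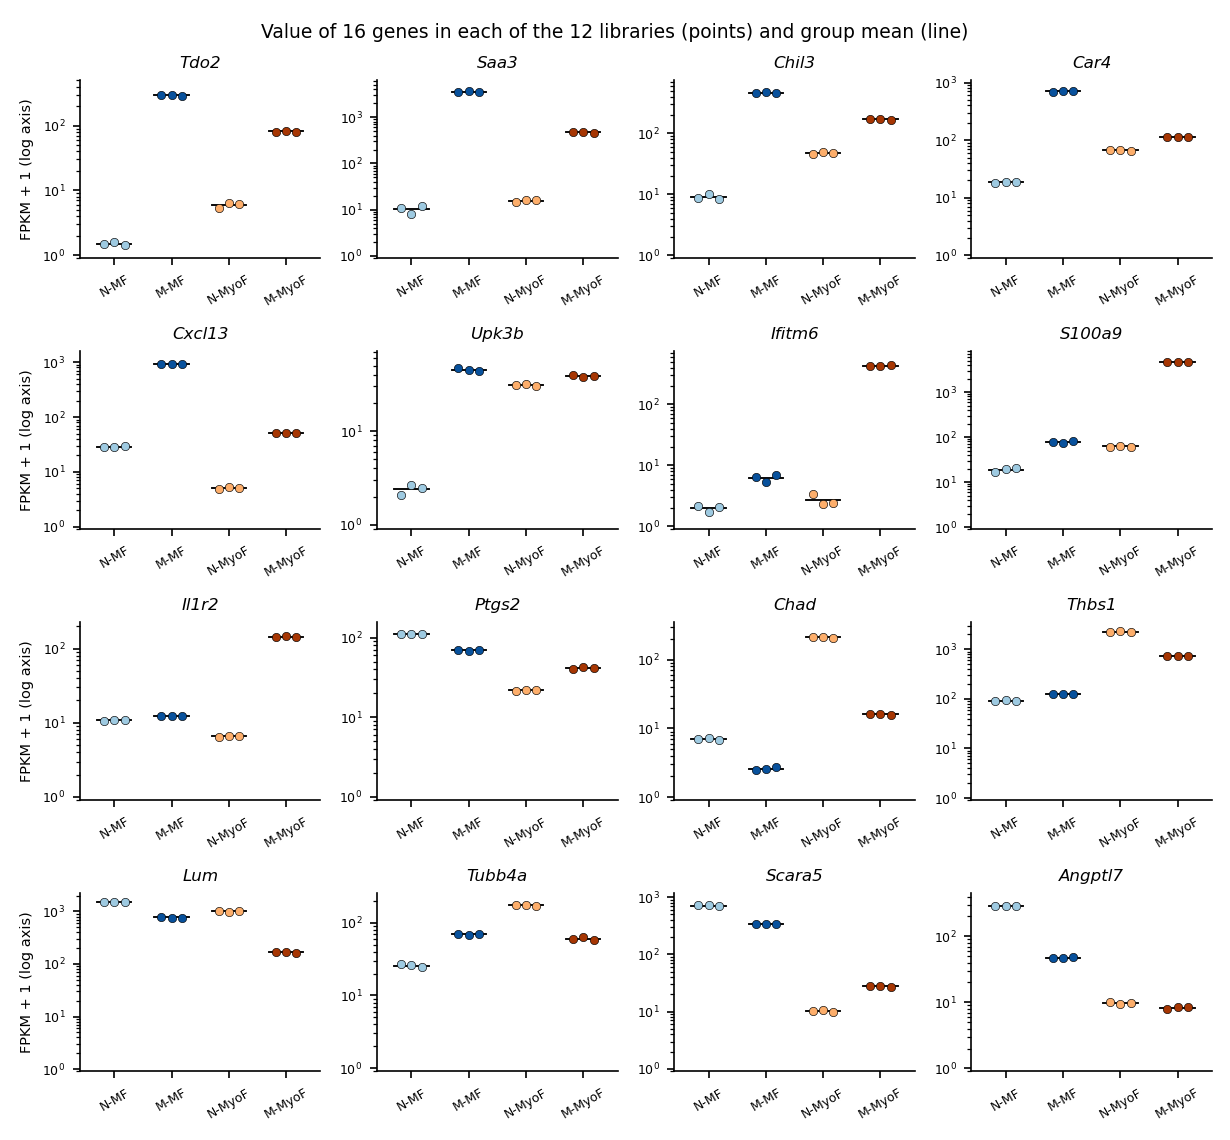
Every panel is 1 gene, with FPKM + 1 on a log y axis, the 4 groups on the x axis, a point for each of the 12 libraries and a line at the group mean. Tdo2, Saa3, Chil3, Car4 and Cxcl13 are highest in M-MF, Ifitm6, S100a9 and Il1r2 in M-MyoF, and Tubb4a and Scara5 move in opposite directions in the 2 subgroups.

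On the side of the higher MyoF effect, genes of neutrophils led. The 10 genes with the largest differences were Ifitm6, Stfa2, Ly6g, Cstdc5, Cd177, Cstdc4, Cstdc6, Stfa3, Stfa2l1 and Retnlg. Ifitm6, a transmembrane protein of the interferon-induced family, read 1.12, 0.7 and 1.08 FPKM in N-MF and 5.55, 4.35 and 6.04 in M-MF. Myofibroblast values were 2.34, 1.3 and 1.41 in N-MyoF and 429, 424 and 432 in M-MyoF. The M-MyoF libraries stood alone, with effects of 1.68 ± 0.136 in matrix fibroblasts and 7.34 ± 0.136 in myofibroblasts and a difference of -5.66 ± 0.192 (limma adjusted p = 8.8e-11). Of these, 6 genes, Stfa2, Stfa3, Stfa2l1, Cstdc4, Cstdc5 and Cstdc6, encode stefin A inhibitors of cysteine proteases, and RefSeq places them within 1 cluster on chromosome 16 of GRCm38. Stfa2l1 starts at 36156811 and Stfa3 ends at 36455392 there. Their differences ran from -4.41 to -4.93, and since they are close copies the share of reads of each is uncertain. Cd177, a neutrophil surface protein, read 109 ± 2.08 FPKM in M-MyoF and at most 1.64 on average elsewhere.

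Of the 14 neutrophil markers, 13 were called with the higher MyoF effect and 0 with the higher MF effect, and the list's median difference was -3.29. S100a9, a subunit of calprotectin, read 15.5, 19.1 and 19.1 FPKM in N-MF and 76.8, 74.2 and 82.2 in M-MF. For N-MyoF the values were 60.6, 62.7 and 59.7 and for M-MyoF 4556, 4645 and 4714. M-MF and N-MyoF lay close together, and M-MyoF far above both, a difference of -4.16 ± 0.0892 (limma adjusted p = 1.4e-12). Its start region on GRCm38.p6 (chr3:90695672-90695971, minus strand) is shown as the counterpart of that of Saa3, with its single match, to TTNCNNNAA, in capitals.
S100a9: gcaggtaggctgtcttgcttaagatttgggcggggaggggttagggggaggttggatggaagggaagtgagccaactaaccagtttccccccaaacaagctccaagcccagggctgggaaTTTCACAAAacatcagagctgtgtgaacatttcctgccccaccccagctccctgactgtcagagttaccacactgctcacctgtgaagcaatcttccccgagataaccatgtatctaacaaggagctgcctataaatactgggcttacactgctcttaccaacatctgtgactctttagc
Ly6g, the marker by which neutrophils are commonly sorted, read 0.120, 0.0600 and 0.120 and 0.270, 0.370 and 0.540 FPKM in N-MF and M-MF and 0.140, 0.360 and 0.140 and 43.1, 45.0 and 44.5 in N-MyoF and M-MyoF. M-MyoF alone stood above 1 FPKM, as for 2 of the 14 markers. Trem1, a receptor of myeloid cells, had a difference of -3.29 ± 0.0544, and Mmp8, the neutrophil collagenase, -3.44 ± 0.0773. Mpo, the myeloperoxidase of granules made early in the bone marrow, was the member not called, at 1.77 ± 0.239 FPKM in M-MF and 5.68 ± 0.243 in M-MyoF, with an adjusted p of 0.0507.

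The summed level of the neutrophil list was 35.3 to 39.7 FPKM in N-MF, 258 to 267 in M-MF, 147 to 161 in N-MyoF and 13470 to 13827 in M-MyoF, and no marker was at 0 in a group. The 6 pan-leukocyte markers moved with it: 5 were called with the higher MyoF effect, and they summed to 11.9 to 13.2, 15.8 to 18, 52.8 to 58.6 and 270.4 to 272 FPKM in the same order of groups. Ptprc, the common leukocyte antigen CD45, read 3.80 ± 0.0945 FPKM in N-MyoF and 9.52 ± 0.306 in M-MyoF, a difference between the effects of -1.28 ± 0.0697. Rac2, a GTPase of blood cells, had -3.14 ± 0.0793, and Coro1a, an actin regulator of leukocytes, -2.68 ± 0.143. Of 13 tested macrophage and monocyte markers 1 was called in each direction, Chil3 with the higher MF effect and Itgam, the integrin alpha M that neutrophils share, at -3.14 ± 0.0550. Itgam reached 1 FPKM in M-MyoF alone, so that without any 1 of those libraries the count was 0. Adgre1, a surface receptor of macrophages, read 1.3 ± 0.144 FPKM in N-MyoF and 1.11 ± 0.191 in M-MyoF. Cd68 had a difference of 0.60 ± 0.0960 and Mrc1, the macrophage mannose receptor, 0.72 ± 0.0779. Among 6 tested T and NK cell markers Cd3d was called at -1.05 ± 0.166, at a mean of at most 1.95 FPKM. Its call was lost without N-MyoF replicate 1 (-0.955), and without any 1 library of M-MyoF the list had 0 calls in that direction. The call of Cd3d was also lost with equal sums per library (-0.957), median-ratio scaling (-0.957), quantile normalization (-0.981) and a pseudocount of 5 (-0.344). The T and NK list's median difference was 0.33, on the other side. Its 11 markers summed to 12.1 to 13.4 FPKM in N-MyoF and to 9.97, 9.7 and 19.89 in the M-MyoF libraries. The part of neutrophil RNA in the differences that follow was not tested.

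**Figure D3:**
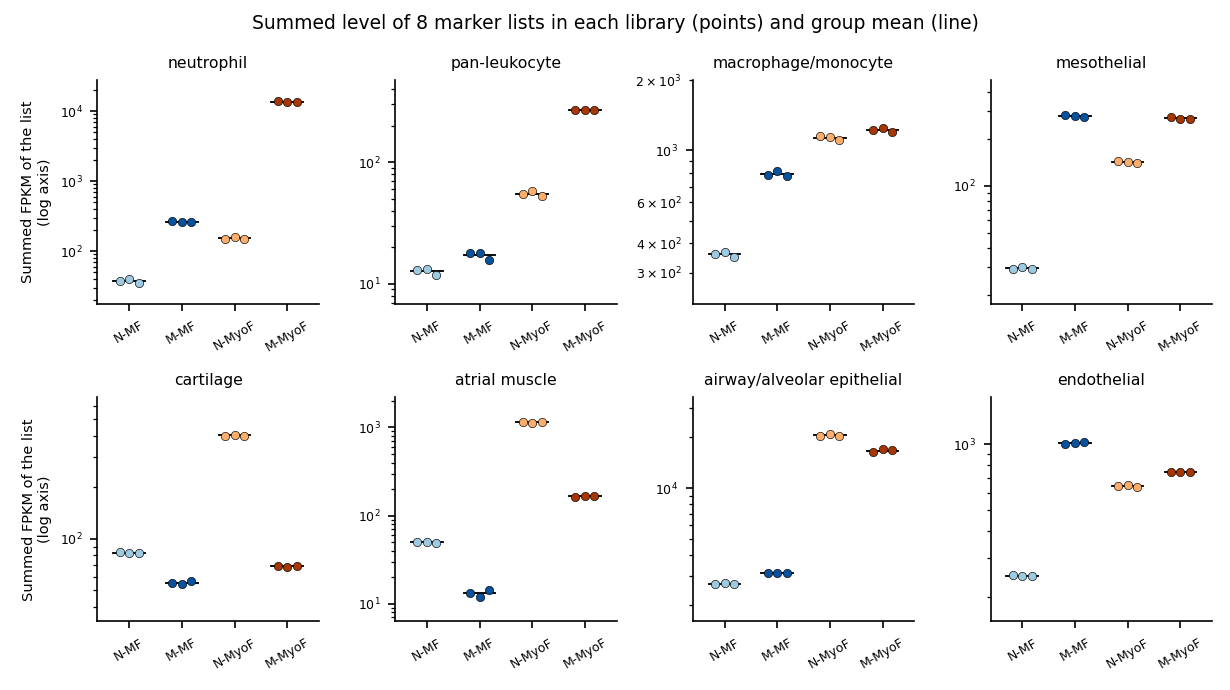
Every panel sums the FPKM of 1 marker list, on a log y axis, for each of the 12 libraries (points) with the group mean as a line. The neutrophil sum is 13470 to 13827 FPKM in M-MyoF and at most 266.5 elsewhere, whereas the cartilage and atrial muscle sums are highest in N-MyoF.

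Several signalling genes that leukocytes also express had the higher MyoF effect beside these markers. Il1r2, the interleukin 1 decoy receptor, read 9.47, 9.88 and 9.98 and 11.4, 11.4 and 11.4 FPKM in N-MF and M-MF, and 5.51, 5.73 and 5.63 and 143, 148 and 142 in N-MyoF and M-MyoF. Normal matrix fibroblasts thus stood above normal myofibroblasts, and the difference of effects was -4.25 ± 0.0399. Il1b had -1.85 ± 0.0774, and Osm, an interleukin 6 family cytokine, -1.72 ± 0.105. Alox5ap, which hands arachidonic acid to 5-lipoxygenase, had -3.72 ± 0.173, and Alox5 itself -2.09 ± 0.0856. Asprv1, an aspartic protease, and Mrgpra2b, a receptor of the Mrgpr family, had -4.08 ± 0.105 and -4.05 ± 0.159. Mmp9, a gelatinase, had -2.61 ± 0.0609. All of these stood highest in M-MyoF, where the neutrophil sum was 13470 to 13827 FPKM.

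Some genes with the higher MyoF effect were high in matrix fibroblasts from the start. Ccl8, a chemokine for monocytes and eosinophils, read 42.4, 45.7 and 45.7 FPKM in N-MF and 108, 102 and 102 in M-MF. In N-MyoF it read 1.39, 0.9 and 0.690 and in M-MyoF 39.5, 39.9 and 42.0. It rose in both subgroups from very different starting levels, with M to N ratios of 2.33 and 40.8 and a difference of -3.19 ± 0.130. Ccl11, the eosinophil chemokine eotaxin, had -1.5 ± 0.0401. Ifi204, a nucleic acid sensor of the interferon-induced p200 family, had -3.18 ± 0.0664, with means of 52.0 ± 1.56 and 80.0 ± 3.32 FPKM in matrix fibroblasts and 1.42 ± 0.163 and 32.4 ± 0.957 in myofibroblasts. Pla2g4a, which frees arachidonic acid from membranes, had -2.39 ± 0.0464. Its level in M-MyoF, 18.8 ± 0.428 FPKM, remained below the 35.6 ± 0.973 of M-MF.

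Of 16 tested complement genes 4 were called with the higher MyoF effect and 1 with the higher MF effect. Over all genes tested these shares were 3.27% and 3.83%, and the list's median difference was -0.37. C3, the central component, read 1106, 1128 and 1081 FPKM in N-MF and 2595, 2656 and 2578 in M-MF. The N-MyoF libraries read 57.0, 58.7 and 55.0 and the M-MyoF libraries 444, 450.2 and 439. All MF libraries lay above all MyoF libraries while the rise was steeper in myofibroblasts, with a difference of -1.71 ± 0.0332. Cfb, factor B of the alternative pathway, had -1.15 ± 0.0302. Clu, which encodes clusterin, a terminal complement inhibitor, was the member on the other side, at 49.4 ± 1.46 and 287 ± 2.21 FPKM in matrix fibroblasts and 213 ± 6.89 and 218 ± 4.54 in myofibroblasts (2.48 ± 0.0382).

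Of 9 tested genes of prostaglandin synthesis and breakdown 2 were called in each direction. Over all genes tested 3.83% were called with the higher MF effect and 3.27% with the higher MyoF effect. Ptgs2, the inducible cyclooxygenase, read 108, 109 and 108 FPKM in N-MF and 68.8, 67.5 and 68.2 in M-MF. Myofibroblast values were 20.4, 21.0 and 21.2 in N-MyoF and 39.8, 41.2 and 40.8 in M-MyoF. It fell in matrix fibroblasts and rose in myofibroblasts without overlap between normal and metastatic libraries, with effects of -0.67 ± 0.0220 and 0.93 ± 0.0220 and a difference of -1.60 ± 0.0311 (limma adjusted p = 6.3e-13). On the other side were Ptgis, prostacyclin synthase, at 1.26 ± 0.0282, and Hpgd, which inactivates prostaglandins, at 1.10 ± 0.0420. Hpgd rose in matrix fibroblasts (0.52 ± 0.0297) and fell in myofibroblasts (-0.58 ± 0.0297).

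Chemokines and cytokines were called in either direction. Of 11 tested CXC chemokines only Cxcl13, which attracts B cells, was called. It read 27.2, 27.4 and 28.1 and 940.3, 923 and 926 FPKM in N-MF and M-MF, and 3.96, 4.21 and 4.12 and 49.2, 49.5 and 50.2 in N-MyoF and M-MyoF. Matrix fibroblasts were the higher subgroup in both states, and the difference was 1.71 ± 0.0326. Cxcl10 and Cxcl14 had differences of 0.92 ± 0.0528 and 0.77 ± 0.0557. Of 12 tested CC chemokines 2 were called in each direction, Ccl9 and Ccl19 beside Ccl8 and Ccl11, and without M-MF replicate 2 the count with the higher MyoF effect was 4. Ccl9 had 2.22 ± 0.0746 and Ccl19, a chemokine of lymphoid stroma, 1.59 ± 0.211. Among 21 cytokines and growth factors for blood cells, 4 were called with the higher MyoF effect and Il18, a cytokine of the interleukin 1 family, with the higher MF effect at 1.15 ± 0.0919. Tslp, an epithelial alarmin, went from 12.7 ± 0.397 to 34.1 ± 0.550 FPKM in matrix fibroblasts and from 7.4 ± 0.956 to 70.1 ± 2.19 in myofibroblasts, a difference of -1.73 ± 0.0872. Flt3l, a growth factor of dendritic cells, fell in matrix fibroblasts (-1.17 ± 0.0497) and read 7.4 ± 0.215 and 8.02 ± 0.580 FPKM in myofibroblasts, a difference of -1.27 ± 0.0703.

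All 7 tested genes of MHC class II presentation rose in both subgroups, and 4, Cd74, H2-Ab1, H2-Aa and H2-Eb1, were called with the higher MF effect, with a list median of 1.14. Cd74, the invariant chain, read 76.9, 71.2 and 76.4 FPKM in N-MF and 809, 814 and 808 in M-MF. For N-MyoF the values were 299, 297 and 289.7 and for M-MyoF 1163, 1132 and 1137. The MyoF libraries were the higher ones in both states and the gap narrowed, with a difference of 1.47 ± 0.0368; the gain in FPKM was nevertheless larger in myofibroblasts, 849 against 736. Ciita, the master regulator of the class, had a 95% interval of -0.41 to 0.041. Jchain, an immunoglobulin joining protein of plasma cells, had 2.07 ± 0.106, and the 7 B and plasma cell markers summed to 3.16 to 3.47, 31.0 to 32.2, 15.0 to 17.5 and 28.5 to 31.6 FPKM in N-MF, M-MF, N-MyoF and M-MyoF. Of 15 class I genes 0 were called, with a median difference of -0.19. Tapbp, a chaperone of peptide loading, had -0.43 ± 0.0313, H2-D1 -0.29 ± 0.0277 and the immunoproteasome subunit Psmb8 -0.71 ± 0.0701. H2 genes are close copies, so the share of each is uncertain. Of 22 interferon-response genes Iigp1, a GTPase of cell-autonomous defence, was the only one called, at 1.28 ± 0.0373.

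Ligands and enzymes that restrain T cells were called in both directions. Nectin2, a ligand of TIGIT, read 9.56, 9.66 and 11 FPKM in N-MF and 54.0, 50.1 and 48.4 in M-MF. In N-MyoF it read 26.3, 24.8 and 24.4 and in M-MyoF 26.6, 27.0 and 25.7. M-MF stood above the other 3 groups, a difference of 2.16 ± 0.0744. Vsir, the checkpoint VISTA, had -1.08 ± 0.0427, with a fall in matrix fibroblasts (-0.78 ± 0.0302) and a rise in myofibroblasts (0.30 ± 0.0302). Arg1, which degrades arginine, had -1.47 ± 0.0873. These were the 3 calls among 13 tested genes. Lgals1, which encodes galectin 1, had -0.54 ± 0.0280 and Pvr, another TIGIT ligand, 0.79 ± 0.0440, both under 2-fold.

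The series' title also names ferroptosis. Of 18 tested defence genes only Scd1, a fatty acid desaturase, was called. It read 26.3, 27.3 and 26.1 and 38.2, 39.6 and 39.4 FPKM in N-MF and M-MF, and 13.4, 14.8 and 13.3 and 50.2, 50.4 and 51.6 in N-MyoF and M-MyoF, so that M-MyoF was the highest group, with a difference of -1.27 ± 0.0508. Gpx4, the peroxidase that removes lipid peroxides, had an adjusted p of 0.0542 and a 95% interval of 0.012 to 0.27. Slc40a1, the iron exporter, had -0.68 ± 0.0507 and the ferritin subunit Fth1 0.39 ± 0.0393. Of 11 tested genes on the promotion list, Ncoa4, the receptor that delivers ferritin for breakdown, was called with the higher MF effect at 1.22 ± 0.0349. It read 36.4 ± 1.15 and 127 ± 0.917 FPKM in matrix fibroblasts and 55.5 ± 0.978 and 81.8 ± 1.20 in myofibroblasts. Ptgs2 and Alox5 were called with the higher MyoF effect, as given above.

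Deeper falls in myofibroblasts included genes of cartilage. Of 12 tested cartilage genes 11 were called with the higher MF effect, that is, a deeper fall in myofibroblasts, and the list's median difference was 2.11. Of the 12, 6 reached 1 FPKM in N-MyoF alone and had to differ, and without any 1 library of N-MyoF 5 were called. Chad, the cartilage protein chondroadherin, read 5.99, 6.28 and 5.85 FPKM in N-MF and 1.52, 1.54 and 1.71 in M-MF. The N-MyoF libraries read 210.4, 214 and 208 and the M-MyoF libraries 15.1, 15.0 and 14.8. N-MyoF alone stood high, and the difference was 2.29 ± 0.0487. Cnmd, which encodes chondromodulin, had 2.73 ± 0.0709 and Otor 3.23 ± 0.0965, where M-MF is listed at 0. Col2a1, the collagen of cartilage, had 1.82 ± 0.0492 with means of 0.773 ± 0.0451 and 0.0133 ± 0.0153 FPKM in N-MF and M-MF, and 41.9 ± 0.0721 and 5.93 ± 0.0611 in N-MyoF and M-MyoF. Its M to N ratio was lower in matrix fibroblasts, 0.0172 against 0.142, so its direction depends on the scale. Sox9, the cartilage transcription factor that other lung cells also use, was the member not called, at -0.16 ± 0.0352. Comp and Snorc, further cartilage genes, had 2.68 ± 0.128 and 2.56 ± 0.156. The 14 cartilage genes summed to 82.6 to 83.4 FPKM in N-MF, 54.5 to 56.4 in M-MF, 400.1 to 406 in N-MyoF and 68.8 to 69.7 in M-MyoF, with Otor, Matn1, Col9a1 and Snorc at 0 in M-MF.

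Atrial muscle genes, known in the lung from the muscle sleeve of pulmonary veins, were called in 1 direction. Of 11 tested members 6 were called with the deeper fall in myofibroblasts and 0 in the other direction, with a median of 1.41. Myl4, the atrial myosin light chain, read 11.8, 12.2 and 12.2 FPKM in N-MF and 4.62, 5.15 and 5.17 in M-MF. Myofibroblast values were 220, 213 and 232 in N-MyoF and 27.4, 24.2 and 27.2 in M-MyoF. The fall was present in both subgroups, from a far higher level in N-MyoF, with a difference of 1.90 ± 0.0719. Tnni3, cardiac troponin I, had 2.20 ± 0.0755, Nppa, the atrial natriuretic peptide, 1.92 ± 0.106, and Myh6, a cardiac myosin heavy chain, 1.87 ± 0.0602. The 12 genes summed to 48.6 to 50.6, 11.9 to 14.3, 1124 to 1167 and 165 to 168 FPKM in N-MF, M-MF, N-MyoF and M-MyoF, and none was at 0. Whether cartilage or vein muscle was carried into the N-MyoF libraries was not tested.

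Further genes fell mostly or more deeply in myofibroblasts. Glycam1, a mucin-like ligand of L-selectin, had the largest difference of all, 6.04 ± 0.0745. It was listed at 0 in all N-MF and M-MyoF libraries, at 0.440, 0.410 and 0.3 FPKM in M-MF and at 46.9, 49.1 and 43.5 in N-MyoF. The value therefore rests on N-MyoF alone, and no ratio can be given. Gfra3, a receptor of the neurotrophic factor artemin, had 2.99 ± 0.0688 from 8.41 ± 0.449 FPKM in N-MyoF to 0.0733 ± 0.0252 in M-MyoF. Cytl1, a secreted cytokine-like protein, fell in both, from 20.2 ± 2.06 to 2.55 ± 0.189 FPKM in matrix fibroblasts and from 356 ± 7.42 to 18.3 ± 0.394 in myofibroblasts, with a difference of 1.63 ± 0.0844. Nr4a2, an orphan nuclear receptor induced by stimulation, read 36.0, 36.2 and 35.7 and 15.3, 14.8 and 15.5 FPKM in N-MF and M-MF, and 412, 407 and 404 and 53.6, 53.3 and 51.9 in N-MyoF and M-MyoF. N-MyoF stood apart, and the difference was 1.73 ± 0.0309. It was 1 of 2 calls, both in this direction, among 21 tested immediate early genes; the list's median difference was 0.22 and its median effects -0.48 in matrix fibroblasts and -0.94 in myofibroblasts. Atf3 and Btg2, of the same list, had 0.68 ± 0.0231 and 0.53 ± 0.0180.

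Falls mostly in matrix fibroblasts included those of several secreted signals. Angptl7, a secreted angiopoietin-like protein, read 286, 282 and 282 FPKM in N-MF and 46.2, 45.6 and 47.5 in M-MF. For N-MyoF the values were 9.01, 8.32 and 8.73 and for M-MyoF 6.83, 7.52 and 7.49. Matrix fibroblasts came down towards the low level of myofibroblasts, with a difference of -2.36 ± 0.0509 (limma adjusted p = 1.5e-12). Pthlh, parathyroid hormone-like hormone, had -2.13 ± 0.0625, and Dkk2, a secreted Wnt antagonist, -2.13 ± 0.0579. Amy1, an amylase, and Chn2, a Rac regulator, had -2.18 ± 0.115 and -1.80 ± 0.1. Falls in both that were deeper in matrix fibroblasts were those of Plekha6, -1.27 ± 0.0703, St8sia2, a polysialyltransferase, -1.17 ± 0.0474, and Ntf3, neurotrophin 3, -1.03 ± 0.0878. The call of Ntf3 was lost without M-MF replicate 3 (-0.96) and without M-MyoF replicate 1 (-0.993). That call was also lost with equal sums per library (-0.953), quantile normalization (-0.835) and a pseudocount of 5 (-0.74). With a pseudocount of 0.1 Plekha6 (-0.943) and St8sia2 (-0.695) came under 2-fold.

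Opposite changes of at least 2-fold were found in 8 genes, 5 up in matrix fibroblasts and 3 down. Tubb4a, a beta tubulin, read 25.8, 24.9 and 23.7 FPKM in N-MF and 68.4, 67.9 and 68.5 in M-MF. In N-MyoF it read 175, 177 and 169 and in M-MyoF 58.9, 62.2 and 56.6. The subgroups started far apart and ended near each other, with effects of 1.43 ± 0.0357 and -1.53 ± 0.0357 and a difference of 2.96 ± 0.0504. Bpifa1, a secreted airway protein, went from 0.540 ± 0.115 to 13.9 ± 1.05 FPKM in matrix fibroblasts and from 101 ± 3.84 to 40.8 ± 0.472 in myofibroblasts (4.56 ± 0.0817), beside the epithelial sums given at the start. Ear1, an eosinophil-associated ribonuclease, had 3.76 ± 0.150, and its close copy Ear2 3.34 ± 0.0687. Mbp, myelin basic protein, and Tmem35a, a chaperone of nicotinic receptors, had 2.52 ± 0.0651 and 2.47 ± 0.103.

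In the other direction, Scara5, a scavenger receptor that takes up ferritin, was the abundant member. It read 723, 715 and 704 FPKM in N-MF and 342, 337 and 338 in M-MF. The N-MyoF libraries read 9.44, 9.63 and 9.03 and the M-MyoF libraries 27.2, 27.2 and 25.7. Every MF library remained above every MyoF library while the gap shrank, with a difference of -2.49 ± 0.0381 (limma adjusted p = 7.8e-14). Itih2, a hyaluronan-binding heavy chain of the inter-alpha-trypsin inhibitor, had -2.69 ± 0.0664, and Tnnt3, fast skeletal troponin T, -2.51 ± 0.165.

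Of 17 tested markers of Col14a1-type matrix fibroblasts 5 were called with the higher MyoF effect and 0 in the other direction, with a median difference of -0.60. Igfbp4, a binding protein of insulin-like growth factors, read 1530.4, 1522 and 1494 FPKM in N-MF and 1532, 1551 and 1519.7 in M-MF. Myofibroblast values were 189, 182 and 184 in N-MyoF and 678, 673 and 668 in M-MyoF. The MF groups lay close together and M-MyoF rose towards them, with a difference of -1.84 ± 0.0231. Cd34, a surface sialomucin, had -1.22 ± 0.0255, Ly6a -1.11 ± 0.0311 and Serpinf1, which encodes an antiangiogenic serpin, -1.45 ± 0.0528. With quantile normalization Cd34 (-0.985) and Ly6a (-0.974) came under 2-fold. Serpinf1 fell in matrix fibroblasts (-1.36 ± 0.0373), whereas Ly6a rose in both (0.37 ± 0.0220 and 1.48 ± 0.0220). For Col14a1 itself the 95% interval was -0.064 to 0.052, around effects of -0.77 and -0.77 in the 2 subgroups. Of 16 tested markers of the Col13a1 type 0 were called: Inmt, a methyltransferase, had -0.72 ± 0.0233, Mfap4, a microfibril protein, -0.86 ± 0.0303 and Tcf21, a mesenchymal transcription factor, -0.95 ± 0.0551. Col13a1, Npnt and Itga8 had 0.74 ± 0.107, 0.65 ± 0.0388 and -0.33 ± 0.0636, and Pdgfra and Pdgfrb -0.31 ± 0.0375 and -0.61 ± 0.0393.

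Among 16 tested myofibroblast markers 4 were called with the higher MF effect and 1 with the higher MyoF effect, and the median difference was 0.79. Enpp2, the lysophospholipase autotaxin, read 113, 114 and 111 FPKM in N-MF and 248, 246 and 245 in M-MF. For N-MyoF the values were 1443, 1459 and 1419.6 and for M-MyoF 858, 869 and 852. It rose in matrix fibroblasts and fell in myofibroblasts, with a difference of 1.86 ± 0.0220 (limma adjusted p = 1.1e-14). Acta2 rose more steeply in matrix fibroblasts (1.10 ± 0.0370), but from 24.0 ± 0.922 to 79.7 ± 1.34 FPKM, against 628 ± 11.7 to 949 ± 12.5 in myofibroblasts, where the gain in FPKM was larger. Mustn1, a small muscle protein, and Lgr6, a Wnt-modulating receptor, had 1.13 ± 0.0429 and 1.27 ± 0.0495. Tgfbi, a matrix protein induced by TGF-beta, was the exception, with the deeper fall in matrix fibroblasts: 341, 336 and 326 FPKM in N-MF, 39.5, 39.8 and 39.0 in M-MF, 617, 610.2 and 584 in N-MyoF and 338, 333 and 313 in M-MyoF, a difference of -2.17 ± 0.0423. Hhip and Aspn had 0.87 ± 0.0350 and -0.49 ± 0.0248, Tagln 0.72 ± 0.0434 and Myh11 0.22 ± 0.0584. Among 13 smooth muscle genes 3 were called, Acta2, the intermediate filament gene Des at 1.86 ± 0.0611 and Myocd, a coactivator of contractile genes, at 1.3 ± 0.0566. Among 12 pericyte markers Lmcd1 was the only call, at 1.24 ± 0.0609, beside 7.1% called over all genes.

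Matrix genes were called in both directions. Of 14 tested matricellular genes 4 were called, all with the higher MF effect. Thbs1, thrombospondin 1, read 90.4, 92.2 and 88.0 FPKM in N-MF and 125, 125 and 122 in M-MF. In N-MyoF it read 2255, 2294 and 2227 and in M-MyoF 728, 738 and 725. It rose a little in matrix fibroblasts (0.46 ± 0.0199) and fell in myofibroblasts (-1.63 ± 0.0199), a difference of 2.08 ± 0.0281. Spp1, osteopontin, had 2.38 ± 0.113 and Tnc, tenascin C, 1.11. Ccn2, a connective tissue growth factor, had -0.93 ± 0.0272, under 2-fold. Among 9 fibrillar collagens the 3 calls, Col2a1, Col11a1 and Col11a2, were collagens of cartilage, 2 of which reached 1 FPKM in N-MyoF alone, so that without any 1 of its libraries the count was 1. In the same list Col3a1 had 0.82 ± 0.0196 and Col1a2 -0.51 ± 0.0232. Of 14 basement membrane genes 2 were called with the higher MyoF effect: Lamb1, a laminin chain, at -1.33 ± 0.0465, and Col4a4, a type IV collagen chain, at -1.03 ± 0.0764. Without M-MyoF replicate 2 this count was 1.

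Of 12 tested small leucine-rich proteoglycans, which organise collagen fibrils, 6 fell at least 2-fold in matrix fibroblasts and 4 in myofibroblasts. Over all genes tested 2.54% and 3.24% fell by that much. Lum, lumican, read 1519, 1492 and 1488 FPKM in N-MF and 779, 763 and 763 in M-MF. The N-MyoF libraries read 1014, 995 and 999.5 and the M-MyoF libraries 168, 165 and 162. M-MyoF was the lowest group, with a difference of 1.63 ± 0.0231. Fmod, fibromodulin, had 1.59 ± 0.0582, and Podn, podocan, -1.52 ± 0.0577, a fall in matrix fibroblasts (-1.36 ± 0.0408) beside 0.16 ± 0.0408 in myofibroblasts. With Chad and Kera these were the 5 calls among 12 tested members, 3 with the higher MF effect and 2 with the higher MyoF effect. Kera, keratocan, reached 1 FPKM in N-MF alone, so that without any 1 of its libraries the second count was 1. For Dcn, decorin, the adjusted p was 0.0642 and the 95% interval -0.079 to -0.0016. Among proteases and their inhibitors 3 of 16 were called with the higher MF effect and Mmp9 with the higher MyoF effect. Serpine2, protease nexin 1, read 46.7, 47.1 and 48.0 FPKM in N-MF and 369, 362 and 360.3 in M-MF, against 464, 461 and 453 in N-MyoF and 721, 721 and 711 in M-MyoF. The MyoF groups stayed above the MF groups while the gap closed, with a difference of 2.28 ± 0.0242. Serpinb2, an inhibitor of plasminogen activators, had 2.64 ± 0.0737. Timp3, a metalloproteinase inhibitor, lay at the 2-fold limit with -0.998 ± 0.0230, just inside which it came, for a count of 2, without any 1 of N-MF replicates 2 and 3, N-MyoF replicate 1, M-MF replicates 1 and 2 and M-MyoF replicates 2 and 3. Loxl4, a collagen crosslinking oxidase, was the only call among 13 crosslinking enzymes, at 1.77 ± 0.0522, and 2 were called without any 1 of N-MF replicates 1 and 2, M-MF replicate 3 and M-MyoF replicate 3.

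Calls among genes of growth factor pathways, glycolysis and the hypoxia response stand beside 7.1% called over all genes. Of 21 tested TGF-beta family genes 3 were called with the higher MF effect and 2 with the higher MyoF effect. Fst, follistatin, an activin antagonist, had -2.44 ± 0.0808, and Ltbp1, which binds latent TGF-beta, -1.62 ± 0.0367. Its relative Ltbp2 had 1.44 ± 0.0496, with means of 3.01 ± 0.105 and 9.09 ± 0.451 FPKM in matrix fibroblasts and 38.7 ± 0.533 and 35.9 ± 0.522 in myofibroblasts. Of 21 Wnt genes, besides Dkk2, Sfrp1, a secreted Wnt antagonist, was called at -1.54 ± 0.0605 and the ligand Wnt4 at 1.81 ± 0.0897. Wnt4 reached 1 FPKM in M-MF alone, so that without any 1 of its libraries the count with the higher MF effect was 0. Of 11 hedgehog genes Cdon, a coreceptor, was the only call, at -1.16 ± 0.0768, and of 13 epithelial niche growth factors Nrg1, neuregulin 1, at -1.51 ± 0.119, and Igf2, insulin-like growth factor 2, at -1.03 ± 0.0957, a count of 2 that was 1 without M-MF replicate 3 or without M-MyoF replicate 2. In glycolysis the glucose transporter Slc2a1, 1.24 ± 0.0446, and the hexokinase Hk2, -1.68 ± 0.0877, were called in opposite directions among 16 genes, and without N-MF replicate 1 the count with the higher MF effect was 2. In the hypoxia list 3 of 14 genes were called with the higher MF effect and 1 with the higher MyoF effect, with a median difference of 0.33. Egln3, an oxygen-sensing hydroxylase, had 2.48 ± 0.0648. Ndrg1, the call in the other direction, had -1.04 ± 0.0283. It came under 2-fold with equal sums per library (-0.96) and with a pseudocount of 5 (-0.982).

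**Figure D4:**
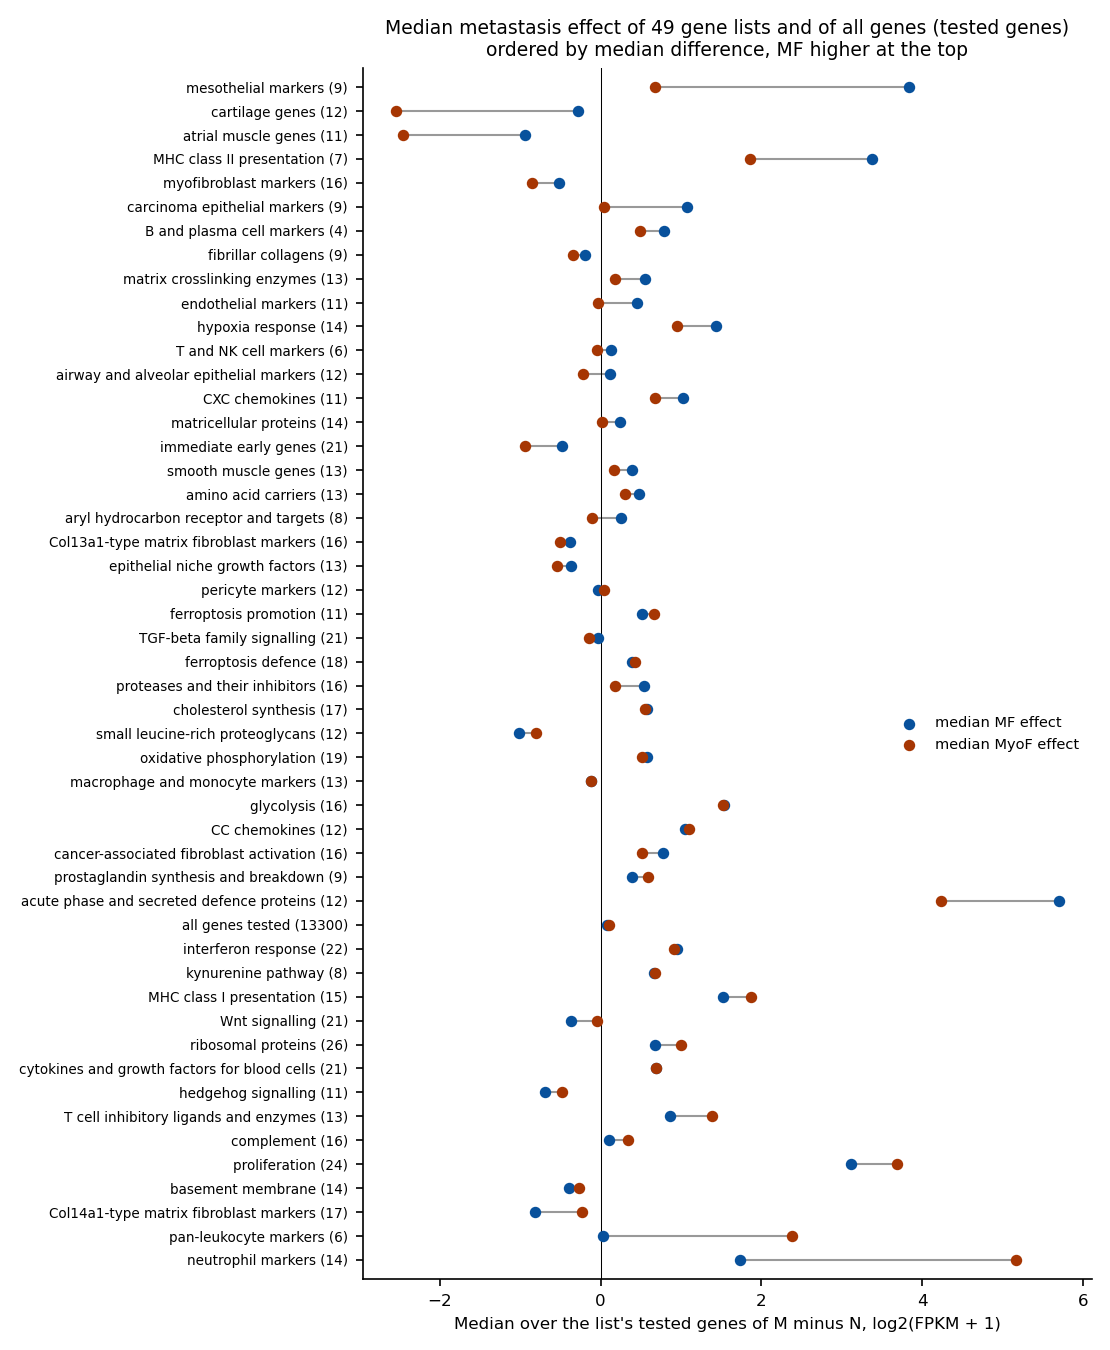
For each of 49 gene lists and for all genes tested, the blue point is the median MF effect and the brown point the median MyoF effect over the tested genes (number in brackets), in log2(FPKM + 1), ordered by the median difference. Mesothelial, cartilage and atrial lists are at the top, with medians of 2.12, 2.11 and 1.41, and pan-leukocyte and neutrophil lists at the bottom, with -1.98 and -3.29.

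Of 24 tested proliferation genes 22 rose at least 2-fold in matrix fibroblasts and 22 in myofibroblasts, against 9.32% and 11.4% of all genes. The list medians were 3.11 in matrix fibroblasts and 3.69 in myofibroblasts, and the median difference was -0.47. Rrm2, a subunit of ribonucleotide reductase, was called with the higher MyoF effect at -1.35 ± 0.0499, and Ccne1, cyclin E1, in the other direction at 1.09 ± 0.120, a call that was lost without M-MyoF replicate 2. Bub1, a mitotic checkpoint kinase, had -0.71 ± 0.0654 and Cdc20, an activator of the anaphase-promoting complex, -0.80 ± 0.0850. Of 26 ribosomal protein genes 0 were called, and the median difference was -0.24, against -0.064 over all genes. The adjusted p alone was passed in favour of myofibroblasts by 23 of the 26, against 5056 of all 13300 genes tested. Of 19 oxidative phosphorylation genes and 17 cholesterol synthesis genes 0 were called, with medians of 0.021 and 0.047. Dhcr7, the last reductase of cholesterol synthesis, had 0.89 ± 0.0622.

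Large shared changes with nearly equal size were also found. Of 234 genes with a mean of at least 5 FPKM in a group and effects of at least 4-fold in both subgroups, Tgtp1, Asf1b, Myoc and H2-Q8 were among the 5 with the differences nearest to 0. Myoc, myocilin, a secreted glycoprotein, read 70.2, 68.7 and 66.7 FPKM in N-MF and 7.08, 7.76 and 7.97 in M-MF. Myofibroblast values were 40.9, 40.9 and 38.9 in N-MyoF and 4.40, 4.26 and 3.84 in M-MyoF. The effects were -3.02 and -3.0, and the 95% interval of the difference was -0.16 to 0.13. The intervals were -0.33 to 0.31 for Tgtp1, an interferon-induced GTPase, -0.31 to 0.28 for Asf1b, a histone chaperone of dividing cells, and -0.78 to 0.82 for H2-Q8. On the ratio scale Tgtp1 nonetheless differed, with M to N ratios of 27.7 in matrix fibroblasts and 13.3 in myofibroblasts, from means of 0.397 and 1.62 FPKM in the normal groups.

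The scale decided the direction for few of the called genes. Of 944 calls, 903 had a mean above 0 in every group, so that the ratio of the 2 M to N ratios could be formed; 41 had a group at 0. The ratio of ratios took the other direction for 18 genes, all with a group mean under 1 FPKM, and for 0 of the 497 genes with every group mean at 1 FPKM or more. Examples were Ltf, lactotransferrin, with a difference of -2.09 and a log2 ratio of ratios of 1.77 from 0.0567 ± 0.0252 FPKM in N-MF, and Mrgprg, a sensory receptor, with 2.16 and -0.92. Mrgprg went from 17.8 ± 0.183 to 544 ± 6.54 FPKM in matrix fibroblasts and from 0.107 ± 0.0153 to 6.19 ± 0.3 in myofibroblasts. In 845 genes the ratio of ratios kept the direction and was 2-fold or more. Gains in plain FPKM pointed the other way for 36 of the 944 genes, 20 with the higher MF effect, such as Cd74 and Acta2, and 16 with the higher MyoF effect, such as C3 and Ccl8.

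**Figure D5:**
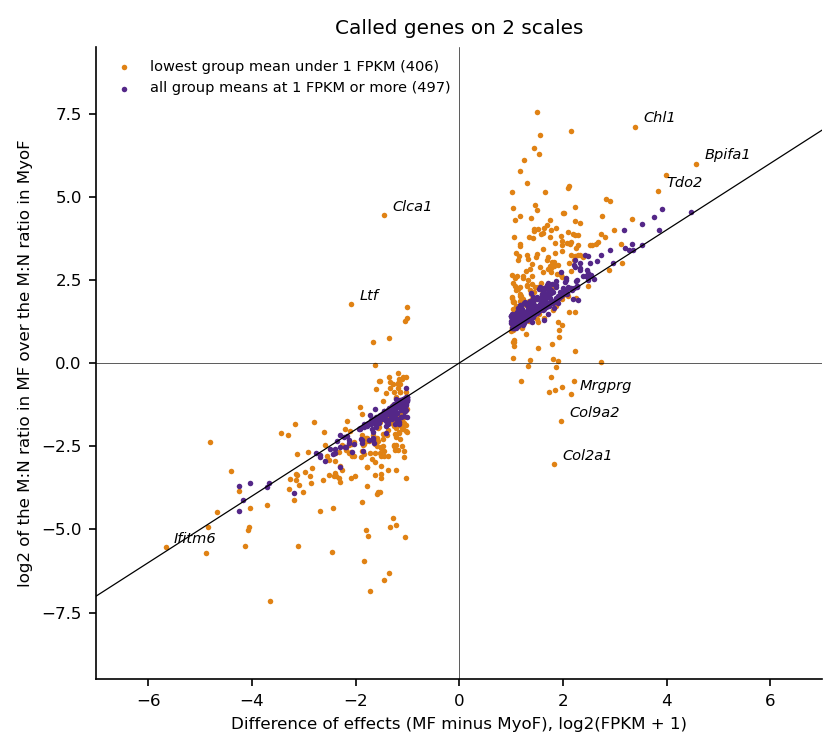
The x axis is the difference of effects in log2(FPKM + 1) and the y axis the log2 ratio of the M to N ratios, for the 903 called genes with a mean above 0 in every group, and the diagonal marks equal values. The 497 purple genes with every group mean at 1 FPKM or more keep their direction, and the 18 genes whose values on the 2 axes differ in sign have a group mean under 1 FPKM.

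Start regions of the called genes that rose at least 2-fold in the subgroup with the higher effect, whatever the other subgroup did, were searched for 5 motifs on both strands, with overlapping matches allowed. The letters were TTNCNNNAA, to which no factor is assigned here, GGANNTTCC for NF-kappaB, GAAANNGAA for IRF, TGANTCA for AP-1 and CACGTG for the E-box. The window was 300 bases, from 250 before to 50 after each RefSeq start. Promoters were given for 212 of 280 such genes with the higher MF effect, for 229 of 299 with the higher MyoF effect and for 10564 of all 13300. The TTNCNNNAA letters were held by 33.0% of the first, 45.9% of the second and 34.0% of all. The AP-1 letters were held by 13.7%, 7.42% and 6.57%, the IRF letters by 13.7%, 12.2% and 8.86%, the NF-kappaB letters by 3.77%, 7.86% and 5.64% and the E-box by 11.8%, 9.17% and 11.4%. In the Saa3 window printed above 5 matches were found, 4 of TTNCNNNAA and 1 of IRF, in that of S100a9 1, and in those of S100a8, Lcn2 and Chil4 0. These shares describe letters in a window, and no binding was measured.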

How the data were processed

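RNA of lung fibroblasts from normal and metastasis-bearing mice was extracted with Trizol and amplified by SMART-Seq2 with poly(A) priming and a transposon-based library, per the labels' protocols. The authors deposited 1 table of FPKM values at 2 decimals for 12 libraries. The build was GRCm38 per the submitters' processing notes, and for the aligner, the counting tool and its treatment of strand and of close copies: not given in the sources used here. Whole reads could not be recovered from the FPKM values, so depth is unknown and no count test was run.

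Genes with FPKM of at least 1 in at least 3 libraries were kept (13300 of 20606). Values were taken as log2(FPKM + 1), a scale that understates the change of low genes, and fitted with limma 3.58.1 (trend) in R 4.3.3 with 4 group means and no covariate. P-values of the difference were Benjamini-Hochberg adjusted across the 13300 genes, and a gene was called at adjusted p under 0.05 and at least 2-fold. The labels number the libraries 1 to 3 in every group. Same-numbered libraries deviated together: their 18 pairs correlated with r of 0.482 to 0.796 across 1830 genes averaging at least 50 FPKM, against -0.683 to 0.38 for 36 other pairs, so the numbers pair the libraries, and the fit with the number as a block is in the closing section. No other column of values was in the table (0).

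Named by rule were, in each direction, the 10 called genes with the largest difference at a group mean of at least 5 FPKM, the 5 largest per shape, up to 4 members per list with the smallest p, members against their list, the kynurenine genes, subgroup markers and the 5 nearest 0 with both effects at least 4-fold. The genes and the 49 lists (677 of 686 symbols matched) were chosen with earlier results of these data known. Lists are described by counts and medians, with no test. On simulated data (13300 genes, 50 changed per size) the test of the difference found 56% of changes of 0.25 on the log2 scale, 98% of 0.5 and 100% of 1 and 2, with 7 false calls and 1 of 2-fold. The changed genes were drawn from those averaging above 5 FPKM on the log2 scale, so the shares found do not describe low genes. Noise was independent in each library, so the deviations that same-numbered libraries share were not simulated. Promoters come from RefSeq, GRCm38.p6, and coordinates are 1-based. Other tools were Python 3.11.15, pandas 2.3.3, numpy 2.4.6 and matplotlib 3.10.9. The 26 alternatives covered the pseudocount, filter, scaling, block, weights, thresholds and leaving out libraries. Some genes that the rule names are not reported here.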

Additional observations from a re-analysis of the deposited data

Results flagged for a closer look

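The metastasis effect differed between the 2 fibroblast subgroups by the limma test of the difference itself for 509 genes with the higher effect in matrix fibroblasts and 435 with the higher effect in myofibroblasts. In 8 of them both effects were at least 2-fold with opposite sign. Up in matrix fibroblasts and down in myofibroblasts were Bpifa1, with a difference of 4.565 on the log2 scale, Ear1 with 3.755, Tubb4a with 2.96, Mbp with 2.519 and Tmem35a with 2.471. Down in matrix fibroblasts and up in myofibroblasts were Itih2, with -2.689, Tnnt3 with -2.506 and Scara5 with -2.494.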

How the results depend on the processing

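The pseudocount and the minimum size moved the counts of calls most. With a pseudocount of 0.1 in place of 1, 839 genes had the higher effect in matrix fibroblasts, and the opposite changes numbered 20 up and 19 down in matrix fibroblasts. With a pseudocount of 5 the calls were 238 and 218 in the 2 directions, and the opposite changes 2 and 1. A minimum of 1.5-fold gave 1237 and 1215 calls and one of 4-fold 112 and 103. Quantile normalization gave 8 opposite changes up in matrix fibroblasts, and all other counts of calls, 88 in number, stayed within 1.5 times. No call shared with the fit reported changed direction under any of the 26 settings. Of the named genes, 4 reversed with a pseudocount of 0.1, each with a group under 1 FPKM: Col2a1 to -0.15, Ltf to 0.35, Mpo to 1.38 and Mrgprg to -0.0029. Counted once per gene and setting, named genes came under 2-fold 55 times and passed it 34 times. Many of the former were at a pseudocount of 5, among them Acta2 (0.955), Ptprc (-0.765), Laptm5 (-0.747), H2-Aa (0.993) and H2-Eb1 (0.903). Others there were Vsir (-0.90), Arg1 (-0.722), Cfb (-0.885), Sfrp1 (-0.975) and Tnc (0.513). With a pseudocount of 0.1 Myh6 came to 0.747. With a fit that holds the replicate number as a block, 510 and 436 genes were called, and all 944 calls were kept. Without the 4 libraries numbered 3, 445 and 370 were called, 768 of them among the 944. Of the named genes, Ntf3 then fell under 2-fold, at -0.923, and Retnla passed it, at -1.09. Leaving out 1 library at a time gave 465 to 521 calls with the higher effect in matrix fibroblasts and 375 to 447 with the higher effect in myofibroblasts. The filter of 3 libraries was kept there. The 140 called genes that reached 1 FPKM in 1 group alone therefore leave the test when a library of that group is left out. Scaling to equal sums gave 580 and 387 calls, median-ratio scaling 542 and 412 and quantile normalization 546 and 420. With at least 1 of these scalings Cd3d, Cd34, Ly6a, Ndrg1, Ntf3, Igf2 and Col4a4 came under 2-fold. Genes that passed it there included Cxcl10, Col3a1 and Retnla. The FPKM values hold no depth, so counting error of low genes is not known, and 447 of the 944 calls have a group mean under 1 FPKM.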

Other observations

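Genes of the carcinoma epithelial marker list were found in every group, those of normal mice included. Krt19 is also on the mesothelial list, and which cells gave these transcripts was not tested. The 12 genes summed to 47.1 to 50.3 FPKM in N-MF, 388 to 396 in M-MF, 203 to 206 in N-MyoF and 841 to 867 in M-MyoF. Of 9 tested, 2 were called with the higher effect in matrix fibroblasts and 0 in the other direction. Krt14 was at 0 in N-MF and Krt5 in M-MyoF.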
